A study of Mus musculus with 66 samples.

Results

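Collagen genes were chosen by symbol alone, as every gene named Col, a number, a and a number, and 41 such genes were found among the 18511 genes listed in either of the tables used here. Of these, 40 were among the 15856 genes with a cleavage and polyadenylation (pA) site in 3'READS, 21 were among the 9999 genes of the RNA-seq table, and 20 were in both. Col4a3 appeared in RNA-seq only. Members with many 3'READS reads, Col1a1, Col5a1, Col12a1 and Col18a1 among them, were not analysed in RNA-seq, so that RNA-seq counts, medians and the order of levels cover the 21 listed members alone. Shares of all genes in RNA-seq are over the table used here, and whether it holds every gene measured is not known. The cells were C2C12, an established mouse myoblast line, given 50 nM siRNA for 48 h as myoblasts. The siRNA was a control (siCtrl) or was directed at a subunit of the Paf1 complex (Paf1C), a complex that travels with RNA polymerase II. The subunits were Paf1 (siPaf1), Cdc73 (siCdc73) and Ski8 (siSki8, whose gene is listed as Wdr61). Each assay had 7 libraries, with batch 1 and batch 2 for siCtrl, siPaf1 and siCdc73 and batch 2 alone for siSki8. Every siSki8 p-value therefore assumes that its single library varied like the other groups, and all p-values measure the spread between these libraries, which the labels tie to a batch and not to a separate culture.

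Collagens are triple helical proteins of the extracellular matrix. Fibrillar collagens (types I, II, III, V and XI among them) build cable-like fibrils, basement membrane collagens (type IV) form sheets beneath cells, beaded filament collagens (type VI) link cells to the fibrils around them, and fibril-associated collagens with interrupted triple helices (FACITs) decorate fibril surfaces. Muscle is wrapped in such a matrix, and myoblasts make part of it themselves. A collagen gene is typically long and cut into many short exons, so that the polymerase passes a great deal of intron before it reaches the pA sites in the 3'-most exon. A pA site used within an intron or an internal exon (CDS-APA) ends the transcript early and leaves out the coding sequence downstream of it.

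In the GENCODE annotation of mm9, the mouse build of the files, the 40 collagen genes of the pA table had a median length of 105690 bases and a median of 48.5 exons, against 21102 bases and 9 exons for the 15590 matched genes of that table, and 36 of the 40 exceeded the overall median length. They ranged from 7105 to 414242 bases and from 3 to 119 exons. They held 154 pA sites, namely 83 of the 3'-most exon, 57 intronic ones in 25 genes, 11 of internal exons and 3 upstream and antisense. None of the 154 shared its position with another gene.

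4 upstream sites carried the changes in upstream site use that passed a test in the collagen genes, and the mm9 sequence around each is given here for that reason, on the sense strand from 5′ to 3′, as the 60 bases that end at the listed cleavage position and the 40 that follow. Capitals mark a poly(A) signal, AATAAA or ATTAAA, the closest one found within the 40 bases before the site on the sense strand. The windows are chr9:79562672-79562771 (minus strand) in intron 2 of Col12a1, chr1:45559631-45559730 (minus strand) in exon 1 of Col5a2, chr16:57753631-57753730 (minus strand) in intron 1 of Col8a1 and chr10:76060792-76060891 (minus strand) in intron 27 of Col6a2.
Col12a1: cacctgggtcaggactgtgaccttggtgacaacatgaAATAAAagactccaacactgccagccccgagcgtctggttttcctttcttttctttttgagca
Col5a2: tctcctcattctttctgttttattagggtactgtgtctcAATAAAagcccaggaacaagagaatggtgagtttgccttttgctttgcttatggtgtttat
Col8a1: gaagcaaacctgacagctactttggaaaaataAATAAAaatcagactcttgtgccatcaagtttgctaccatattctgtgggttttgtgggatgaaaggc
Col6a2: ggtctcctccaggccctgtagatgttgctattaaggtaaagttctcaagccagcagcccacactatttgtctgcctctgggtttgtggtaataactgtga

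Counted with both its first base and the listed cleavage position included, AATAAA began 23 bases before the Col12a1 site, 21 before the Col5a2 site and 28 before the Col8a1 site. Neither hexamer was found in the searched bases at the Col6a2 site. Across all genes, 60.8% of 16766 intronic sites and 32.4% of 967 internal exon sites held either hexamer within these 40 bases, compared with 29 of 57 collagen intronic sites (50.9%) and 1 of 11 collagen internal exon sites (9.09%), the one in Col5a2. In the 3'-most exon the shares were 58.6% of all sites and 68.7% of collagen sites. A match is only a description of these letters in this window.

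Col12a1 gave the largest change in site use of the collagen genes tested. It encodes the FACIT collagen XII of tendon, ligament and muscle connective tissue, lies at chr9:79446798-79566325 on the minus strand, and has 66 exons and 3065 codons in its longest annotated coding transcript. Its intronic site lay at position 79562712, 3613 bases from the transcript start and 459 bases into an intron of 7431 bases, after 24 of the 3065 codons and at the annotated end of a short retained-intron transcript (0 bases apart). It was read 21 and 20 times in batches 1 and 2 of siCtrl, 2437 and 3564 in siPaf1, 481 and 608 in siCdc73, and 13 in siSki8. All other sense sites of the gene together had 260 and 207, 297 and 657, 106 and 255, and 86 reads in the same order. The intronic site thus took 7.47% (95% Wilson interval 4.94 to 11.2) and 8.81% (5.78 to 13.2) of Col12a1 reads in siCtrl, 89.1% (87.9 to 90.2) and 84.4% (83.3 to 85.5) in siPaf1, 81.9% (78.6 to 84.8) and 70.5% (67.3 to 73.4) in siCdc73, and 13.1% (7.84 to 21.2) in siSki8. Every siPaf1 and siCdc73 library was above every siCtrl library and above siSki8, with no overlap of the intervals.

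The log2 ratio of the intronic site to all other reads of Col12a1 rose by 6.13 (SE 1.19, adjusted p = 0.000106) in siPaf1 and by 5.10 (SE 1.17, adjusted p = 0.00251) in siCdc73 without a batch term, and it was 0.83 higher in siSki8 (adjusted p = 1.0). It was the only one of the 21 collagen intronic sites tested to be called, out of 57, in a test where 0.955% (siPaf1) and 1.8% (siCdc73) of the 6600 intronic sites of all genes were called. The labels name the batch of each library, and with batch as a block the estimates were the same, with adjusted p of 2.39e-16 and 1.92e-11. That fit also called 1 collagen site in each knockdown, beside 5.24% and 6.26% of all sites, and 0 in siSki8, where 0% of all sites and 0 collagen sites even at an unadjusted p under 0.05 were found by edgeR. In the blocked fit the call held when any 1 library was left out (highest adjusted p 1.04e-06 and 0.000133). Without the block the siPaf1 call held too (highest 0.0432), while the siCdc73 call was lost without siCtrl batch 1 (0.0653) or either siCdc73 library (0.125 and 0.0569). The siCdc73 minus siPaf1 difference, -1.03 (SE 0.62), was not called (adjusted p = 0.507).

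The reads of the 3'-most exon of Col12a1 moved far less than those of the intron. Intronic reads stood at 3.15 and 1.89 CPM (PASS reads per 1000000 of a library's TMM-scaled total) in siCtrl, 315 and 236 in siPaf1, 104 and 43.2 in siCdc73 and 1.48 in siSki8. Reads of the 3'-most exon stood at 39.0 and 19.6 CPM in siCtrl, 38.3 and 43.5 in siPaf1, 23.0 and 18.1 in siCdc73 and 9.78 in siSki8. The intronic values separated completely, whereas the siPaf1 and siCdc73 values of the 3'-most exon both overlapped siCtrl. With batch as a block, the level of the 3'-most exon differed from siCtrl by 0.60 (SE 0.32, adjusted p = 0.175) in siPaf1 and -0.41 (SE 0.32, adjusted p = 0.385) in siCdc73 on the log2 scale, while siCdc73 was below siPaf1 by -1.01 (SE 0.32, adjusted p = 0.0259). Col12a1 was not among the genes listed in RNA-seq, so that its coding reads were not analysed here.

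**Figure D1:**
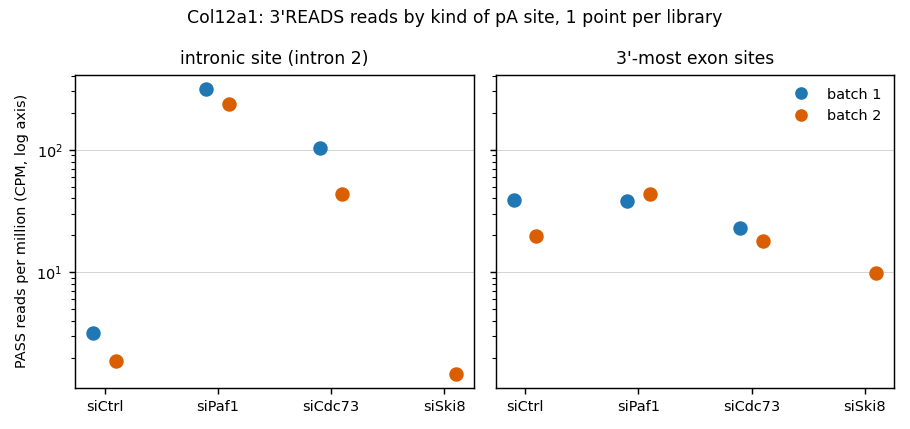
Col12a1 reads in 3'READS, in CPM on a log axis, at the intronic site (left) and summed over the 3'-most exon sites (right), with 1 point per library, the siRNA on the x axis and the batch as colour. The intronic reads run from 43.2 to 315 CPM in the 4 siPaf1 and siCdc73 libraries against 3.15 at most in the others, while the 3'-most exon reads of all 7 libraries lie between 9.78 and 43.5 CPM.

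Summed over intronic and internal exon sites, upstream use could be tested in 7 of the 16 collagen genes with reads at both kinds of site, as the ratio of upstream to 3'-most exon reads after sites under 5% of a gene were set aside. Upstream shares of Col5a2, Col6a2 and Col20a1 given next are shares of the reads kept by that filter. Without a batch term, 1 member was called in siPaf1, Col12a1 (6.23, SE 0.82, adjusted p = 0.00319), and 2 in siCdc73, Col12a1 (5.36, SE 0.81, adjusted p = 0.00513) and Col5a2 (4.90, SE 1.48, adjusted p = 0.0474), beside 3.23% and 4.81% of the 1766 genes tested. Leaving out siCtrl batch 2 lost each of these calls (adjusted p = 0.0542, 0.072 and 0.24), and leaving out either siCdc73 library lost those of siCdc73 (0.06 and 0.0522 for Col12a1, 0.187 and 0.121 for Col5a2). With the batch block, 4 members were called in siPaf1 (higher for Col12a1, Col5a2 and Col8a1, lower for Col6a2) and 3 in siCdc73 (higher for Col12a1, Col5a2 and Col8a1), beside 23.5% and 23.3% of all genes. In siSki8, 0 members were called by edgeR, with 0 at an unadjusted p under 0.05, beside 0.0566% of all genes. The median log2 change of the 7 members was 0.24 in siPaf1 and 1.94 in siCdc73, against 0.61 and 0.84 over all genes tested.

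Col5a2, the alpha 2 chain of the fibril-nucleating collagen V (chr1:45431166-45560127, minus strand), was cleaved at position 45559671, within exon 1 of 54, 456 bases from the start and after 29 of 1497 codons. This site had 4 and 0 reads in siCtrl, 42 and 42 in siPaf1, 79 and 100 in siCdc73 and 1 in siSki8. Upstream reads made up 3.15% and 0% of the reads kept in siCtrl, 20.5% and 8.20% in siPaf1, 47.3% and 22.1% in siCdc73 and 0.41% in siSki8. Both siPaf1 and both siCdc73 libraries were above siCtrl, and siCdc73 was the higher of the pair in each batch. With the block, the log2 ratio rose by 3.25 (SE 0.89, adjusted p = 8.91e-05) in siPaf1 and 4.93 (SE 0.86, adjusted p = 7.2e-10) in siCdc73, and the siPaf1 call was lost without siCtrl batch 2 (adjusted p = 0.0587). The difference between the knockdowns was 1.68 (SE 0.64, adjusted p = 0.0878).

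Col8a1, a short-chain network collagen of vessel walls and the cornea (chr16:57624371-57754850, minus strand), was cleaved in intron 1 of 3 at position 57753671, 1179 bases from the start and before the first coding base (0 of 744 codons). The site had 0 and 1 reads in siCtrl, 13 and 67 in siPaf1, 7 and 9 in siCdc73 and 0 in siSki8. Its share of all sense reads of the gene was 0% and 1.20% in siCtrl, 14.8% and 20.4% in siPaf1, 36.8% and 14.5% in siCdc73 and 0% in siSki8, and the siCdc73 batch 1 value rests on 7 reads at the site and 12 others, with a Wilson interval of 19.1 to 59.0. The siPaf1 and siCdc73 shares did not overlap siCtrl. The log2 ratio of upstream to 3'-most exon reads rose by 3.04 (SE 1.46, adjusted p = 0.00502) and 3.92 (SE 1.53, adjusted p = 0.00165) with the block and was not called without it (adjusted p = 0.107 and 0.0702). Leaving out siCtrl batch 1, or the knockdown library of batch 2 (siPaf1) or batch 1 (siCdc73), ended the calls, with adjusted p up to 0.242 and 0.102.

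Col6a2, the alpha 2 chain of the beaded filament collagen VI (chr10:76058507-76086375, minus strand), moved the opposite way. Its main upstream site at position 76060832 lay in the last intron, 27 of 27, 25543 bases from the start and after 835 of 1034 codons, in an exon of 1 other annotated transcript whose end was 252 bases away. It had 207 and 73 reads in siCtrl, 43 and 50 in siPaf1, 50 and 31 in siCdc73 and 25 in siSki8. The upstream share was 54.5% and 28.3% in siCtrl, 25.9% and 7.35% in siPaf1, 27.5% and 15.9% in siCdc73 and 24.3% in siSki8, so that every knockdown library was below both siCtrl libraries. The log2 ratio fell by 2.00 in siPaf1 with the block (SE 0.64, adjusted p = 0.00891). Without the block it was not called (adjusted p = 0.297), and the blocked call was lost without either siCtrl library or without siPaf1 batch 2, with adjusted p up to 0.24.

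The other upstream sites with 30 or more reads did not pass the test or could not be fitted. Col4a2, a basement membrane chain, had 7 and 30 reads at its most read intronic site (position 11378234) in siCtrl, 7 and 20 in siPaf1, 10 and 65 in siCdc73 and 11 in siSki8. That site alone had a log2 ratio 1.79 higher in siCdc73 (SE 1.14, adjusted p = 0.37 with the block). Summed over upstream sites, the Col4a2 ratio was 1.94 higher in siCdc73 (SE 0.80, adjusted p = 0.054 with the block). Col20a1, a FACIT, had 25% and 26.1% upstream reads in siPaf1 and 62.3% and 57.2% in siCdc73, but siCtrl had only 2 and 4 upstream reads against 0 and 1 in the 3'-most exon. Its siPaf1 difference was -2.65 (SE 1.82, adjusted p = 0.0769 with the block), which was not called and rests on those few siCtrl reads. Col14a1, the FACIT collagen XIV, had most of its upstream reads at position 55351244, which is the annotated end of a shorter coding transcript (0 bases apart) and held 4 and 7 reads in siCtrl, 43 and 106 in siPaf1, 3 and 29 in siCdc73 and 7 in siSki8. Its upstream ratio was not called (adjusted p = 0.462 and 0.495 with the block). Col23a1, a membrane collagen, had 3 and 3, 18 and 31, 8 and 24, and 4 reads at its most read intronic site, and it was not called either (adjusted p = 0.679 and 0.904 with the block). Apart from 2 siSki8 reads in the 3'-most exon, all Col23a1 reads were intronic. That ratio set 1 intronic site against others and could not show a shift away from the 3'-most exon. All reads of Col6a4 were intronic, 0 and 0, 2 and 14, 7 and 17, and 5, so that no ratio could be formed.

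**Figure D2:**
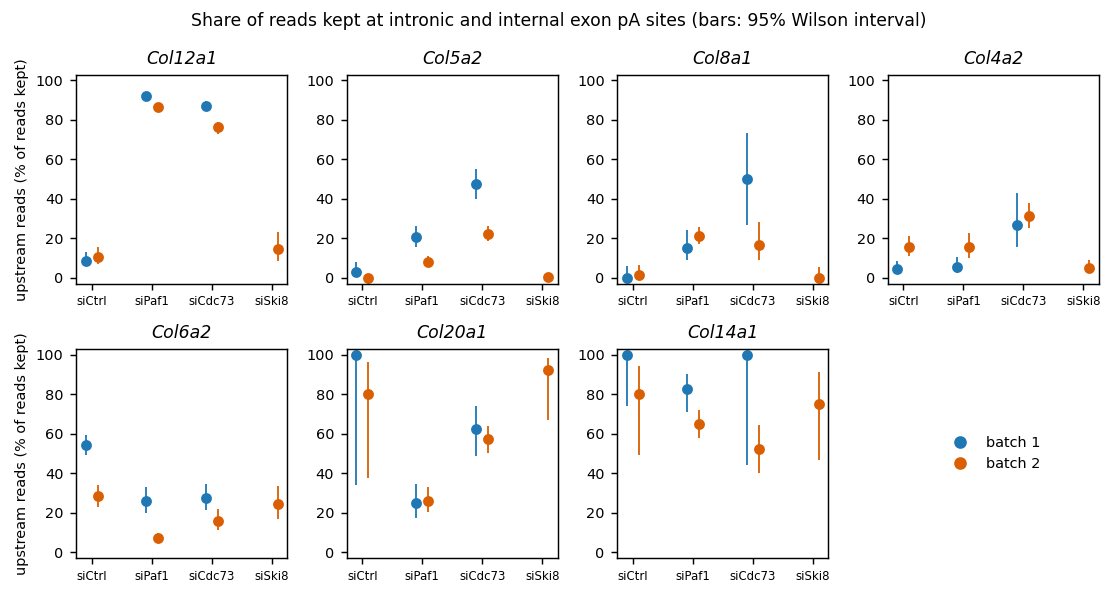
Share of a gene's 3'READS reads at intronic and internal exon sites, in percent of the reads kept after sites under 5% of the gene were set aside, for the 7 collagen genes in which upstream use was tested, with 1 point per library, its 95% Wilson interval as a bar, the siRNA on the x axis and the batch as colour. Col12a1 runs from 76.2% to 91.9% in siPaf1 and siCdc73 against 14.4% at most elsewhere, and the intervals of Col20a1 and Col14a1 are wide where few reads were counted.

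Over all collagen genes together, upstream sites held 1.27% and 0.496% of sense reads in siCtrl, 8.93% and 7.85% in siPaf1, 5.01% and 2.75% in siCdc73 and 0.383% in siSki8. Without Col12a1 the shares were 1.19% and 0.443%, 0.904% and 1.09%, 1.78% and 1.21%, and 0.337%, so that siPaf1 overlapped siCtrl, while both siCdc73 libraries were still above siCtrl, batch 2 only just above siCtrl batch 1. Over all genes the upstream shares ran from 2.12% to 2.46% in siCtrl, from 3.06% to 3.28% in siPaf1, from 2.87% to 3.09% in siCdc73 and stood at 2.38% in siSki8. The number of intronic sites of a collagen gene went with its length (Spearman rho 0.44 over 40 genes that share these libraries) and hardly with its reads (rho -0.21), as a description only.

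Collagen levels were dominated by a few genes. In 3'READS, where a transcript gives its reads at its end so that CPM needs no length correction, Col3a1 held 60.7% to 79.0% of all collagen reads in the 7 libraries and the 4 highest genes held 89.0% to 92.8%. Col3a1 and Col5a1 led in every library, and Col12a1 was the third in all 4 siPaf1 and siCdc73 libraries and ranked 8 by mean siCtrl level. Collagen genes as a whole made up 0.2707% to 0.3881% of PASS reads. In RNA-seq, expressed per kilobase (RPKM), Col3a1 stood at 302 and 284 in siCtrl, well above Col4a1 at 78.8 and 36.7, Col6a1 at 48.5 and 20.9, and Col8a1 at 34.9 and 21.2. In bulk libraries such as these, fewer cells of a kind and less RNA per cell cannot be told apart.

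Without a batch term, no collagen level was called in any knockdown by edgeR's quasi-likelihood F-test (p-values adjusted after Benjamini and Hochberg), and neither was any other gene (0% of 6521 genes in RNA-seq and 0% of 12579 in 3'READS, for siPaf1, siCdc73 and siSki8). At an unadjusted p under 0.05 that fit had 4, 8 and 2 of the 14 collagen genes tested in RNA-seq and 10, 13 and 2 of the 29 tested in 3'READS for siPaf1, siCdc73 and siSki8, beside 17.4%, 20.7% and 5.41%, and 13.7%, 15.4% and 3.35%, of all genes. DESeq2 without a batch term called 3, 3 and 0 members in RNA-seq and 4, 6 and 0 in 3'READS, beside 5.98%, 8.43% and 0.0767%, and 3.94%, 5.65% and 0%, of all genes. All level calls given next come from the fit with batch as a block, and every log2 difference is from that fit.

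In siPaf1 RNA-seq, 4 of the 14 members tested were called higher and 2 lower, beside 16.2% and 16.1% of all genes, and in siCdc73 4 were called higher and 5 lower, beside 19.4% and 20.5%. In siSki8, 2 members were called, both lower, beside 5.35% of all genes. In siPaf1 3'READS, 7 of 29 members were called higher and 2 lower, beside 10.8% and 10.0% of all genes, and in siCdc73 8 were called higher and 6 lower, beside 11.4% and 12.7%. In siSki8 3'READS, 0 members were called by edgeR, beside 0.795% of all genes, and 1 by DESeq2 with the block, beside 1.58%. At an unadjusted p under 0.05 the edgeR fit had 7 members, and no share of all genes is given for that threshold. The median log2 difference of the members tested was 0.71 in siPaf1, -0.37 in siCdc73 and -0.76 in siSki8 in RNA-seq, against 0.02, -0.02 and 0.02 over all genes, and 0.79, 0.34 and -0.02 in 3'READS, against 0.08, -0.02 and -0.06. A member with few control reads entered the test only where a knockdown raised it, so these counts and medians describe the genes that passed the count filter and not all 41. For the same reason a call of such a member is not independent of the filter. This holds for Col6a4 in 3'READS and Col22a1 in both assays, with 0 siCtrl reads.

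**Figure D3:**
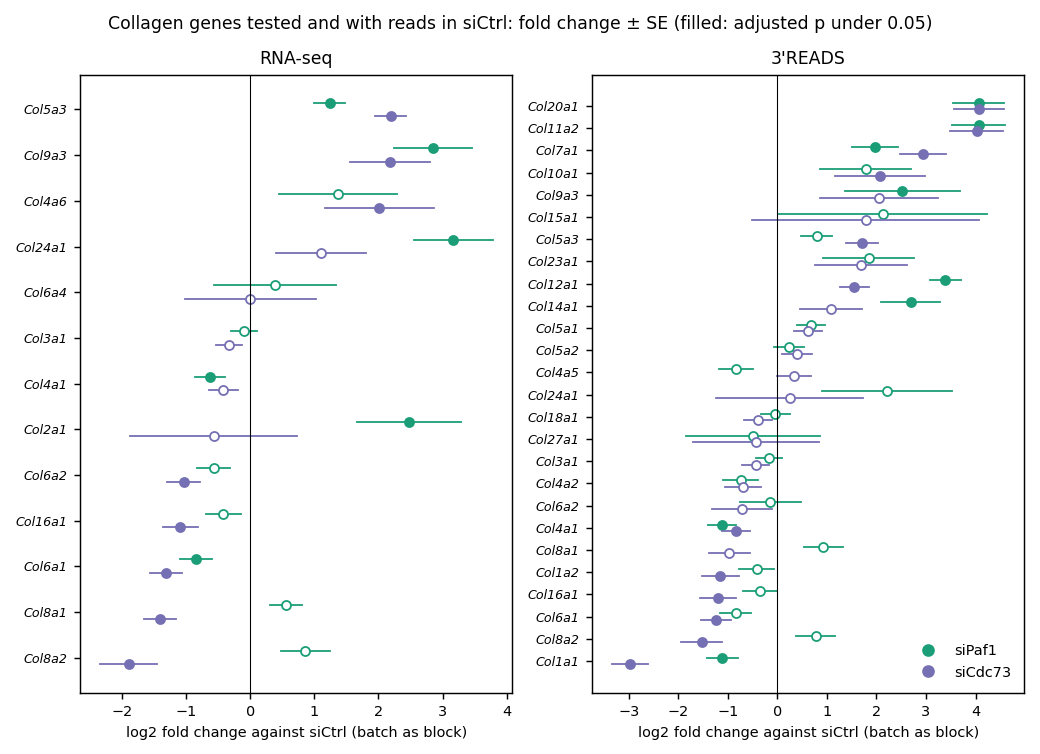
Log2 fold change against siCtrl, with batch as a block, of each collagen gene tested and read at least once in siCtrl, in RNA-seq (left) and 3'READS (right), for siPaf1 and siCdc73, with SE as bars and filled points where the adjusted p was under 0.05. The bars use the SE of the estimate before the prior count pulls it towards no change. Col20a1 and Col11a2 lie near 4.06 for both knockdowns in 3'READS, whereas Col8a1 and Col8a2 lie above 0 for siPaf1 and below it for siCdc73 in both assays.

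Among fibrillar collagens, Col1a1 and Col1a2, which encode the chains of type I collagen, ranked 7 and 15 of the 40 collagen genes by mean siCtrl level in 3'READS. Col1a1 stood at 26.6 and 44.6 CPM in siCtrl 3'READS, 11.5 and 22.0 in siPaf1, 2.39 and 6.46 in siCdc73 and 15.8 in siSki8. All of the knockdown libraries were below both siCtrl libraries, and siCdc73 was the lowest in each batch. Its level fell by 1.11 in siPaf1 (SE 0.32, adjusted p = 0.0139) and fell by 2.98 in siCdc73 (SE 0.36, adjusted p = 2.04e-06) on the log2 scale, and the siPaf1 call was lost without either siCtrl library or siPaf1 batch 2 (adjusted p up to 0.176). Col1a2 stood at 7.80 and 17.4, 5.29 and 13.8, 3.04 and 8.31, and 19.2 CPM, lower than siCtrl within each batch in siCdc73 but overlapping it across batches. It fell by 1.15 in siCdc73 (SE 0.38, adjusted p = 0.0247), a call lost without any 1 of the siCtrl or siCdc73 libraries (adjusted p up to 0.147).

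Col3a1, which encodes type III collagen, changed little. It stood at 3300 and 3280 CPM in siCtrl RNA-seq, 3150 and 2990 in siPaf1, 2860 and 2390 in siCdc73 and 2160 in siSki8, and at 2640 and 2670, 2670 and 2090, 2090 and 1840, and 2460 CPM in 3'READS. The siCdc73 libraries were below siCtrl in both assays, yet no difference was called, with log2 values of -0.10, -0.33 and -0.55 (SE 0.20, 0.20 and 0.27) in RNA-seq and adjusted p of 0.199 or more. Col5a1, which encodes the alpha 1 chain of type V, stood at 365 and 306 CPM in siCtrl 3'READS, 429 and 660 in siPaf1, 532 and 504 in siCdc73 and 364 in siSki8. Both knockdown pairs were above siCtrl, but the differences of 0.68 (SE 0.28) and 0.62 (SE 0.28) were not called (adjusted p = 0.0858 and 0.109). Col5a2 stood at 20.7 and 35.4, 29.3 and 35.7, 38.0 and 34.3, and 30.1 CPM, with overlapping groups and adjusted p of 0.628 and 0.372.

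Col5a3, which encodes the alpha 3 chain of type V, gave the clearest rise among the fibrillar genes with many reads. It stood at 83.9 and 86.9 CPM in siCtrl RNA-seq, 164 and 249 in siPaf1, 347 and 445 in siCdc73 and 139 in siSki8, and at 28.2 and 12.3, 31.2 and 34.2, 71.9 and 55.9, and 33.4 CPM in 3'READS. The order siCtrl, siPaf1, siCdc73 held with no overlap in both assays. In RNA-seq it rose by 1.24 in siPaf1 (SE 0.24, adjusted p = 0.000149) and by 2.19 in siCdc73 (SE 0.24, adjusted p = 3.44e-08), and both calls held when any 1 library was left out. In 3'READS the siCdc73 rise was 1.71 (SE 0.32, adjusted p = 0.000358), lost only without siCtrl batch 2 (adjusted p = 0.0528), and the siPaf1 difference was 0.79 (SE 0.32, adjusted p = 0.0773).

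Col11a2, a cartilage fibrillar chain, was almost unread in siCtrl, at 0.75 and 0.473 CPM in 3'READS, and stood at 11.2 and 14.9 in siPaf1, 11.3 and 14 in siCdc73 and 1.48 in siSki8. The 4 siPaf1 and siCdc73 values lay together and far above the rest. It rose by 4.06 in siPaf1 (SE 0.53, adjusted p = 1.41e-06) and by 4.02 in siCdc73 (SE 0.53, adjusted p = 2.08e-06), both kept without any 1 library. Col24a1, a minor fibrillar gene, stood at 0.699 and 1.51 CPM in siCtrl RNA-seq, 7.48 and 19.5 in siPaf1, 3.10 and 1.6 in siCdc73 and 0.582 in siSki8. Only siPaf1 was called (3.17, SE 0.61, adjusted p = 3.75e-05), also when any 1 library was left out. In 3'READS Col24a1 had 4 and 1, 12 and 50, 0 and 12, and 3 reads, and its siPaf1 difference of 2.21 (SE 1.31) was not called (adjusted p = 0.13), though it was called higher when reads of the 3'-most exon alone were counted (adjusted p = 0.0258). Col2a1, the main cartilage collagen, had 9 and 0 RNA-seq reads in siCtrl, 38 and 14 in siPaf1, 1 and 2 in siCdc73 and 1 in siSki8, higher in both siPaf1 libraries (2.48, SE 0.81, adjusted p = 0.00494, lost without siCtrl batch 2 at 0.17). Its 3'READS reads were 8 in siPaf1 and 0 elsewhere, at least 2.01-fold higher than a siCtrl floor of 3 counts over the group. This floor and those given below allow for unseen siCtrl reads only, not for the spread of the knockdown libraries. Col27a1 had 2 to 17 reads per library and was not called, and Col11a1 had 3 at most and was not tested.

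Among basement membrane collagens, Col4a1, which encodes the alpha 1 chain of type IV, fell. It stood at 71.4 and 68.7 CPM in siCtrl 3'READS, 38.9 and 26.5 in siPaf1, 42.6 and 36.5 in siCdc73 and 66.7 in siSki8, and at 981 and 483, 656 and 298, 614 and 427, and 404 CPM in RNA-seq. In 3'READS siCtrl did not overlap siPaf1 or siCdc73, while those overlapped each other, and in RNA-seq the batches differed enough that siPaf1 and siCdc73 were below siCtrl only within a batch. In 3'READS it fell by 1.12 in siPaf1 (SE 0.28, adjusted p = 0.00574) and by 0.83 in siCdc73 (SE 0.28, adjusted p = 0.0322), and in RNA-seq by 0.63 in siPaf1 (SE 0.23, adjusted p = 0.0317), with -0.42 in siCdc73 not called (adjusted p = 0.139). Each of these 3 calls was lost without siCtrl batch 2 and without the batch 2 library of its own knockdown, with adjusted p up to 0.178, 0.365 and 0.263; the siCdc73 call was also lost without siCtrl or siCdc73 batch 1, and the RNA-seq call without siCtrl or siCdc73 batch 1 or siCdc73 batch 2.

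Col4a2, its partner chain, stood at 24.6 and 18.4 CPM in siCtrl 3'READS, 16.9 and 9.13 in siPaf1, 9.99 and 15 in siCdc73 and 24.6 in siSki8, below siCtrl in all 4 siPaf1 and siCdc73 libraries but not called (-0.74 and -0.70, SE 0.35 and 0.36, adjusted p = 0.132 and 0.161). When reads of the 3'-most exon alone were counted, Col4a2 was called lower in siCdc73. Col4a5, an X-linked basement membrane chain, stood at 14.1 and 17.5, 6.45 and 11.8, 13.2 and 29.0, and 17.6 CPM, with neither knockdown called (adjusted p = 0.0839 and 0.503). Col4a6 had 2 and 4 RNA-seq reads in siCtrl, 12 and 5 in siPaf1, 19 and 9 in siCdc73 and 1 in siSki8, and it rose by 2.01 in siCdc73 (SE 0.85, adjusted p = 0.0124), a call lost without any 1 of the siCtrl or siCdc73 libraries (adjusted p up to 0.202). Col4a4 had 0 reads in both siCtrl libraries of 3'READS, 9 and 10 in siPaf1, 0 and 6 in siCdc73 and 0 in siSki8, at least 4.78-fold and 1.84-fold higher than the floor. All of these siPaf1 reads were intronic, and the 3'-most exon held 0 reads in siPaf1 and 0 and 3 in siCdc73. In RNA-seq Col4a4 had 0 reads in both siPaf1 libraries and 0 and 3 in siCdc73. Col4a3 had 2 reads at most in any RNA-seq library.

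Of the beaded filament collagens, Col6a1, the alpha 1 chain of type VI, fell in both assays. In RNA-seq it stood at 371 and 169 CPM in siCtrl, 145 and 131 in siPaf1, 146 and 68.3 in siCdc73 and 85.1 in siSki8, and in 3'READS at 98.7 and 50.9, 35.9 and 41.7, 39.7 and 22.8, and 33.4 CPM. Every knockdown library was below both siCtrl libraries in both assays. In RNA-seq it fell by 0.85 in siPaf1 (SE 0.25, adjusted p = 0.0106), by 1.32 in siCdc73 (SE 0.25, adjusted p = 0.000132) and by 1.17 in siSki8 (SE 0.34, adjusted p = 0.0415), and in 3'READS by 1.24 in siCdc73 (SE 0.31, adjusted p = 0.00443). The siCdc73 call in RNA-seq held without any 1 library; the others were lost without siCtrl batch 1 and, in turn, siPaf1 batch 1, siCtrl batch 2 and siCdc73 batch 2, with adjusted p up to 0.263, 0.144 and 0.169.

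Col6a2 stood at 115 and 82.2 CPM in siCtrl RNA-seq, 61.0 and 69.4 in siPaf1, 59.3 and 36.1 in siCdc73 and 46.7 in siSki8, all below siCtrl, and at 59.0 and 26.3, 21.8 and 45.4, 39.5 and 14.1, and 12.4 CPM in 3'READS, where the groups overlapped. It fell by 1.04 in siCdc73 RNA-seq (SE 0.26, adjusted p = 0.00181), lost without siCtrl batch 1 or siCdc73 batch 2 (adjusted p up to 0.122). Col6a4 had 0 reads in both siCtrl libraries of 3'READS, 2 and 14 in siPaf1, 7 and 17 in siCdc73 and 5 in siSki8, at least 4.02-fold, 7.38-fold and 3.27-fold higher than the floor of 3 counts. The siCdc73 rise was called (adjusted p = 0.0357), but not without any 1 of the siCtrl or siCdc73 libraries (up to 0.283), and in RNA-seq Col6a4 had 3 to 6 reads in every library and no call. Col6a5 and Col6a6 had 4 reads at most in any library and were not tested.

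The network collagens Col8a1 and Col8a2, which encode the chains of type VIII, separated siCdc73 from siPaf1. Col8a1 stood at 194 and 124 CPM in siCtrl RNA-seq, 203 and 261 in siPaf1, 61.5 and 57.1 in siCdc73 and 178 in siSki8, and at 9.00 and 7.85, 11.4 and 21.8, 4.13 and 4.40, and 9.33 CPM in 3'READS. The siCdc73 libraries were below every other library and the siPaf1 libraries above siCtrl in both assays. In RNA-seq it fell by 1.41 in siCdc73 (SE 0.25, adjusted p = 5.62e-05, kept without any 1 library), while siPaf1 was 0.56 higher (SE 0.25, adjusted p = 0.0823), and in 3'READS the values were -0.97 and 0.93 (adjusted p = 0.0808 and 0.0851). With reads of the 3'-most exon alone, Col8a1 was called lower in siCdc73 in 3'READS too (-1.38, SE 0.44, adjusted p = 0.0166).

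Col8a2 differed strongly between batches, at 26.6 and 2.35 CPM in siCtrl RNA-seq, 39.8 and 6.98 in siPaf1, 6.04 and 0.638 in siCdc73 and 1.16 in siSki8. The 3'READS values were 39.3 and 5.11, 35.4 and 17.9, 10.9 and 2.41, and 2.16 CPM. Within each batch siCdc73 was below siCtrl in both assays, by 2.12 and 1.61 log2 units in RNA-seq, while across batches the groups overlapped. It fell by 1.90 in siCdc73 RNA-seq (SE 0.45, adjusted p = 0.000659) and by 1.53 in 3'READS (SE 0.42, adjusted p = 0.00937), both lost without siCtrl batch 1 and the former also without siCdc73 batch 1 (adjusted p up to 0.214 and 0.424). Col10a1, the collagen of hypertrophic cartilage, had 5 and 4 reads in siCtrl 3'READS, 28 and 23 in siPaf1, 22 and 25 in siCdc73 and 0 in siSki8. It rose by 2.07 in siCdc73 (SE 0.91, adjusted p = 0.0499), and in 5 of 7 fits without 1 library it was not called (up to 0.271), while the siPaf1 difference was 1.78 (SE 0.91, adjusted p = 0.0942).

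Col7a1, the anchoring fibril collagen of skin, stood at 3.90 and 0.945 CPM in siCtrl 3'READS, 9.68 and 7.61 in siPaf1, 25.6 and 11.8 in siCdc73 and 3.53 in siSki8. Both knockdowns were above siCtrl with no overlap and siCdc73 was the higher in each batch. It rose by 1.97 in siPaf1 (SE 0.46, adjusted p = 0.00192, lost without siCtrl batch 2 at 0.103) and by 2.94 in siCdc73 (SE 0.46, adjusted p = 2.87e-05, kept without any 1 library).

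Of the 9 FACIT genes listed in 3'READS, 6 passed the count filter. The siPaf1 calls were higher for Col9a3, Col12a1, Col14a1, Col20a1 and Col22a1, and the siCdc73 calls higher for Col12a1, Col20a1 and Col22a1 and lower for Col16a1, beside 10.8%, 11.4% and 12.7% of all genes. Col9a3, Col14a1, Col20a1 and Col22a1 had 11 reads at most in a siCtrl library and 22 to 206 in the siPaf1 libraries (1 and 25 for Col22a1), so that the count filter bears on how many FACIT genes were called, and nothing is read from that number. Col20a1 stood at 0.90 and 0.473 CPM in siCtrl, 14.7 and 13.6 in siPaf1, 13.5 and 14.9 in siCdc73 and 1.48 in siSki8, nearly the same 4 knockdown values as Col11a2. It rose by 4.06 in siPaf1 (SE 0.51, adjusted p = 9.76e-07) and by 4.07 in siCdc73 (SE 0.51, adjusted p = 1.21e-06), kept without any 1 library. Col12a1, with all sites summed, stood at 42.2 and 21.5 CPM in siCtrl, 353 and 279 in siPaf1, 127 and 61.3 in siCdc73 and 11.3 in siSki8. It rose by 3.39 in siPaf1 (SE 0.31, adjusted p = 2.79e-08) and by 1.55 in siCdc73 (SE 0.29, adjusted p = 0.00031), kept without any 1 library, but the siCdc73 sign turned (-0.41) and both calls were lost when reads of the 3'-most exon alone were counted, as given above. In siSki8 the summed level was -1.01 (SE 0.40, adjusted p = 0.254).

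Col14a1 stood at 1.65 and 0.945 CPM in siCtrl 3'READS, 7.49 and 11.6 in siPaf1, 1.30 and 4.61 in siCdc73 and 1.37 in siSki8, above siCtrl in both siPaf1 libraries and in siCdc73 batch 2. It rose by 2.69 in siPaf1 (SE 0.59, adjusted p = 0.00104, lost without siCtrl batch 2 at 0.117), with 1.08 in siCdc73 (SE 0.63, adjusted p = 0.171). Col9a3, a cartilage FACIT chain, stood at 1.26 and 0.673 CPM in siCtrl RNA-seq, 6.04 and 14.7 in siPaf1, 4.64 and 7.34 in siCdc73 and 0.146 in siSki8, and at 0.15 and 0.284, 2.84 and 1.85, 1.74 and 1.49, and 0.114 CPM in 3'READS. Each siPaf1 and siCdc73 library was above each siCtrl library in both assays. In RNA-seq it rose by 2.85 in siPaf1 (SE 0.61, adjusted p = 0.000126, kept without any 1 library) and by 2.18 in siCdc73 (SE 0.63, adjusted p = 0.00182, lost without siCtrl batch 2 at 0.115), and in 3'READS by 2.52 in siPaf1 (SE 1.16, adjusted p = 0.0434, lost without any 1 siCtrl or siPaf1 library, up to 0.255).

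Col16a1, a FACIT of skin and smooth muscle, fell. It stood at 69.7 and 54.0 CPM in siCtrl RNA-seq, 38.4 and 55.5 in siPaf1, 27.6 and 30.6 in siCdc73 and 15.1 in siSki8, and at 22.1 and 19.2, 15.1 and 16.7, 12.4 and 6.25, and 7.74 CPM in 3'READS. siCdc73 and siSki8 were below siCtrl in both assays, and siPaf1 overlapped siCtrl in RNA-seq. In RNA-seq it fell by 1.09 in siCdc73 (SE 0.28, adjusted p = 0.00221) and by 2.06 in siSki8 (SE 0.39, adjusted p = 0.00174), and in 3'READS by 1.20 in siCdc73 (SE 0.36, adjusted p = 0.0146). The siSki8 call held in all 6 fits without 1 library; the siCdc73 calls were lost without siCtrl batch 1, the RNA-seq one also without siCdc73 batch 1 and the 3'READS one without siCtrl batch 2 or siCdc73 batch 2 (adjusted p up to 0.207 and 0.33).

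Col22a1, a FACIT of tissue junctions such as the myotendinous junction, had 0 reads in both siCtrl libraries of both assays. In 3'READS it had 1 and 25 reads in siPaf1, 11 and 39 in siCdc73 and 7 in siSki8, at least 6.54-fold, 15.4-fold and 4.58-fold higher than the floor of 3 counts over the group. In RNA-seq it had 4 and 0, 2 and 9, and 0 reads, at least 1.78-fold and 5.01-fold higher in siPaf1 and siCdc73. There the siPaf1 value rests on batch 1 alone, and most siCdc73 reads were in batch 2. The gene entered the RNA-seq test only through such knockdown reads. The 3'READS rises were called (adjusted p = 0.0422 and 0.00458), the former resting on batch 2 and lost in 4 fits without 1 library (up to 0.555), the latter lost without siCtrl batch 2 (0.112), and the RNA-seq rise in siCdc73 (adjusted p = 0.0186) was lost without either siCtrl library (up to 0.227). Of the siPaf1 reads of Col22a1, 1 and 21 were at a single intronic site, and with reads of the 3'-most exon alone the siPaf1 call was lost (adjusted p = 0.334) while that of siCdc73 was kept (0.00866). Col9a1, Col9a2 and Col19a1 had 8 sense reads at most in any library and were not tested. Nor were Col4a3, Col4a4, Col6a6, Col9a2, Col19a1, Col23a1 and Col25a1 in RNA-seq, with 4 reads at most.

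The multiplexin Col18a1, which encodes a basement membrane proteoglycan collagen, stood at 116 and 52.3 CPM in siCtrl 3'READS, 112 and 50.9 in siPaf1, 62.8 and 54.1 in siCdc73 and 63.9 in siSki8. Its values followed the batch in siCtrl and siPaf1, and no difference was called (adjusted p = 0.933 and 0.364). Col15a1 had 1 siCtrl read in all and 27 in siPaf1 batch 2, with no call. Among membrane collagens, Col23a1 had 4 and 5 reads in siCtrl, 18 and 38 in siPaf1, 10 and 30 in siCdc73 and 9 in siSki8, higher in each batch but not called (1.84 and 1.68, SE 0.92 and 0.93, adjusted p = 0.0913 and 0.121). As given above, these Col23a1 reads were intronic apart from 2 in siSki8. Col25a1 had 18 siPaf1 reads, 17 of them in batch 2, and 0 in the other 5 libraries, and Col13a1 and Col17a1 had 8 at most in any library.

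**Figure D4:**
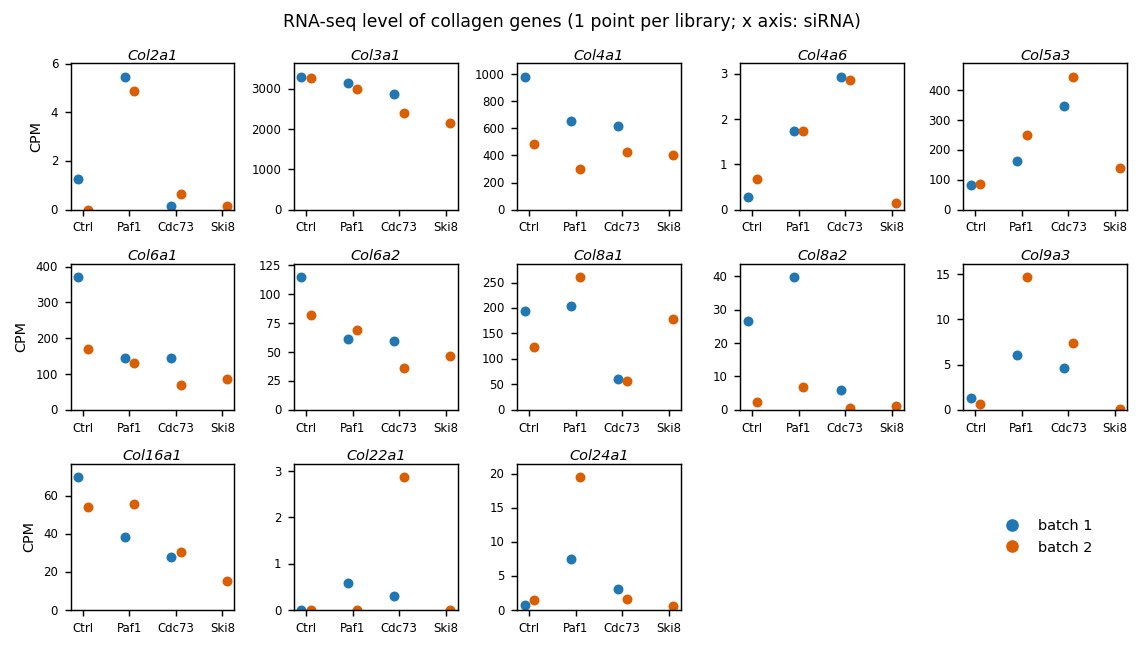
RNA-seq level of the 13 collagen genes with a mean of 50 or more reads per library or a call, in CPM, with 1 point per library, the siRNA on the x axis, the batch as colour and a separate y axis from 0 for each gene. Col5a3 climbs from 83.9 and 86.9 in siCtrl to 347 and 445 in siCdc73, and Col8a1 falls to 61.5 and 57.1 in siCdc73 while siPaf1 stands at 203 and 261.

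**Figure D5:**
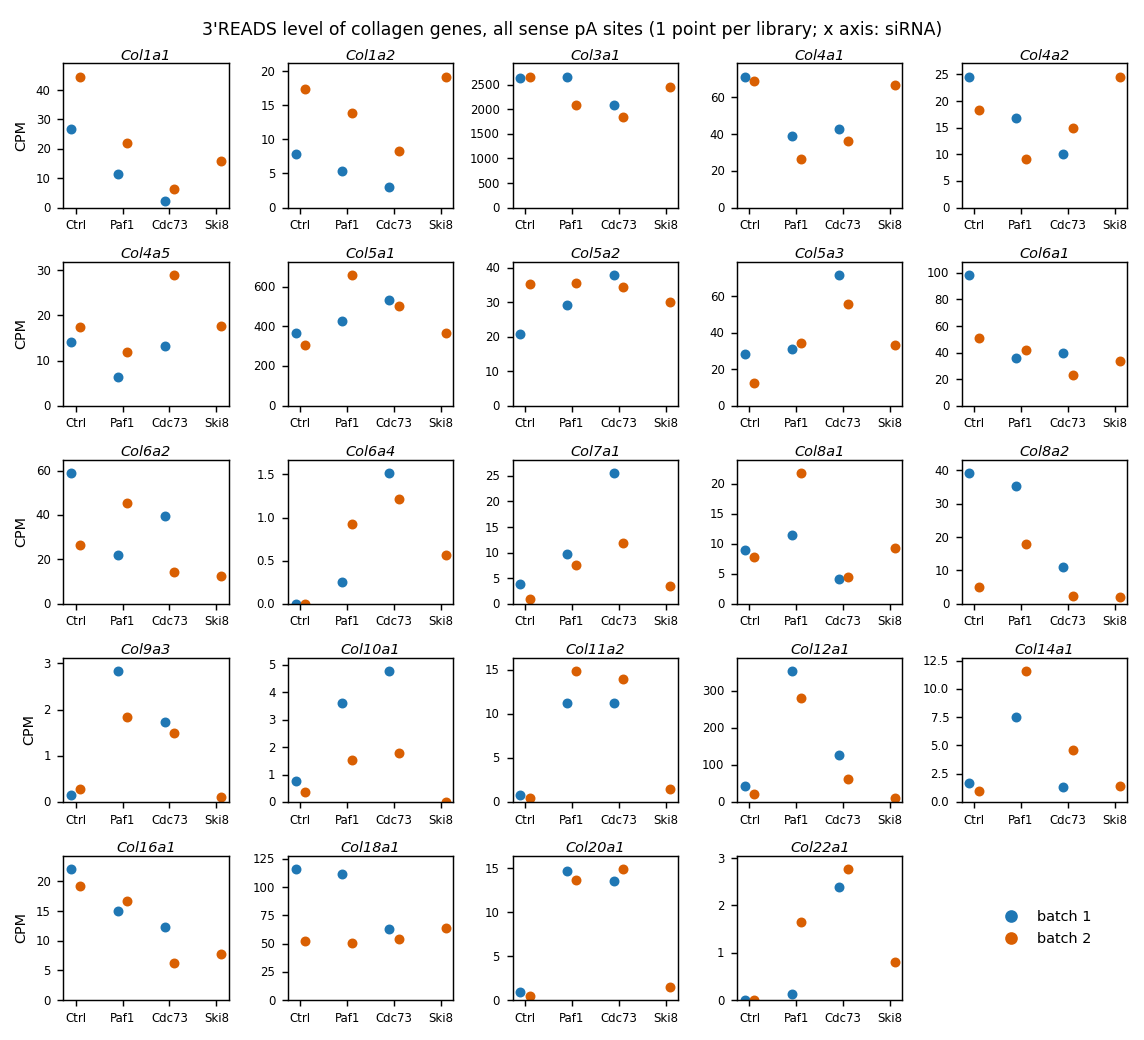
3'READS level of the 24 collagen genes with a mean of 50 or more reads per library or a call, all sense sites summed, in CPM, drawn as 1 point per library with the siRNA on the x axis and the batch as colour. Col11a2 and Col20a1 stand between 11.2 and 14.9 in siPaf1 and siCdc73 against 1.48 at most elsewhere, and Col1a1 drops to 2.39 and 6.46 in siCdc73.

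Tested directly, siCdc73 differed from siPaf1 in 5 of 14 members in RNA-seq and 7 of 29 in 3'READS, beside 28.1% and 16.4% of all genes. In RNA-seq siCdc73 was above siPaf1 for Col5a3 (0.95, SE 0.23, adjusted p = 0.00291) and below it for Col8a1 (-1.97, SE 0.26, adjusted p = 1.78e-06), Col8a2 (-2.76, SE 0.46, adjusted p = 2.26e-05), Col24a1 (-2.07, SE 0.56, adjusted p = 0.00457) and Col2a1 (-3.05, SE 1.01, adjusted p = 0.00346). In 3'READS it was above siPaf1 for Col5a3 (0.92, SE 0.31, adjusted p = 0.0421) and Col4a5 (1.17, SE 0.34, adjusted p = 0.0194). It was below siPaf1 for Col1a1 (-1.87, SE 0.36, adjusted p = 0.000572), Col8a1 (-1.90, SE 0.41, adjusted p = 0.00185), Col8a2 (-2.30, SE 0.42, adjusted p = 0.00071), Col12a1 (-1.84, SE 0.29, adjusted p = 7.68e-05) and Col14a1 (-1.61, SE 0.53, adjusted p = 0.0332). Col5a3, Col8a1 and Col8a2 were called in the same direction in both assays. The calls for Col8a1 in RNA-seq, Col8a2 in both assays, Col1a1 and Col12a1 held without any 1 library, and the others did not. In RNA-seq, Col2a1 was lost without siCdc73 batch 1 (adjusted p = 0.225), Col24a1 without siPaf1 batch 2 or siCdc73 batch 2 (up to 0.297) and Col5a3 without siCdc73 batch 2 (0.0995). In 3'READS, Col4a5 was lost without siCdc73 batch 2 (0.394), Col8a1 without siPaf1 batch 2 or siCdc73 batch 2 (up to 0.0787), Col14a1 without siPaf1 batch 2 or siCdc73 batch 1 (up to 0.253) and Col5a3 without siPaf1 batch 1, siSki8 or either siCdc73 library (up to 0.286). In 3'READS, Col14a1 was also lost when reads of the 3'-most exon alone were counted (-1.37, adjusted p = 0.28). Without the block edgeR called no member in this comparison in either assay, and DESeq2 called Col8a1 in RNA-seq.

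Choice of site within the 3' untranslated region could be tested in 11 members. With the block, 0 were called by edgeR in siPaf1 and 0 in siCdc73, beside 6.61% and 4.42% of 4567 genes. At an unadjusted p under 0.05 that fit had 2 and 1 members, and no share of all genes is given for that threshold. In siSki8 1 member was called, Col5a1, beside 0.307%. Its proximal site, 1631 bases before the distal one, took 32.7% and 43.1% of the pair in siCtrl, 47.9% and 41.1% in siPaf1, 31.3% and 38.6% in siCdc73 and 72.8% in siSki8, which stood above every other library. The log2 ratio rose by 2.02 in siSki8 (SE 0.50, adjusted p = 0.0334), from 1 library, and was not called without the block (adjusted p = 1.0) or, with it, without either siCtrl library (up to 0.593). The proximal share of Col18a1 ran from 61.5% to 79.9% with no call.

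Of the genes that modify, export, process, cross-link, bind, sense or degrade collagen, 34 were tested in RNA-seq and 53 in 3'READS. In RNA-seq 5 were called higher and 8 lower in siPaf1, 5 and 10 in siCdc73, and 5 and 3 in siSki8, and in 3'READS 6 and 8, 3 and 14, and 1 and 0. Over all genes the shares called higher and lower were 16.2% and 16.1% in siPaf1 and 19.4% and 20.5% in siCdc73 in RNA-seq, and 10.8% and 10.0%, and 11.4% and 12.7%, in 3'READS, with 5.35% and 0.795% called in either direction in siSki8. Only genes called in both assays in the same direction are named. Loxl2, a lysyl oxidase that cross-links collagen, stood at 166 and 223 CPM in siCtrl RNA-seq, 90.5 and 50.9 in siPaf1, 25.1 and 38.6 in siCdc73 and 194 in siSki8, with no overlap between siCtrl and either siPaf1 or siCdc73. It fell by 1.42 in siPaf1 (SE 0.28, adjusted p = 0.000206) and by 2.62 in siCdc73 (SE 0.29, adjusted p = 5.85e-08), and by 1.13 and 2.30 in 3'READS. Of the 5 cross-linking enzymes tested in 3'READS, 3 fell in siPaf1 and 3 in siCdc73, beside 10.0% and 12.7% of all genes, and of the 3 tested in RNA-seq 1 fell in each, beside 16.1% and 20.5%.

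Plod3, a lysyl hydroxylase, stood at 907 and 599 CPM in siCtrl RNA-seq, 490 and 255 in siPaf1, 964 and 647 in siCdc73 and 639 in siSki8, low in siPaf1 alone, where it fell by 1.05 (SE 0.22, adjusted p = 0.000516). Ppib, a prolyl isomerase of the collagen folding machinery, and Sec13, a coat protein of export vesicles, also fell in siPaf1, by 0.63 and 0.83. Of 8 hydroxylation, glycosylation and folding genes tested in siPaf1 RNA-seq, 0 were called higher and 5 lower, beside 16.2% and 16.1% of all genes. Of 15 in 3'READS, 1 was called higher and 3 lower, beside 10.8% and 10.0%. For export genes these counts were 2 and 1 of 7 in RNA-seq, and 0 and 1 of 8 in 3'READS. In siCdc73 the pathway genes called in both assays were, besides Loxl2 and the Ogn and Timp3 described next, Pcolce2 (fell by 1.33), an enhancer of propeptide cleavage, Fkbp10 (fell by 0.70), a collagen chaperone, and Sec23a (1.13 higher), an export coat protein. Ogn, a fibril-binding proteoglycan, stood at 58.0 and 45.1 CPM in siCtrl, 108 and 92.8 in siPaf1, 31.6 and 16.6 in siCdc73 and 17.5 in siSki8. It was thus above siCtrl in siPaf1 (0.96, SE 0.26, adjusted p = 0.00457) and below it in siCdc73 (-1.10, SE 0.27, adjusted p = 0.0016), and of the 5 fibril-binding proteoglycans tested in RNA-seq 2 rose in siPaf1, 4 fell in siCdc73 and 2 fell in siSki8, beside 16.2%, 20.5% and 5.35% of all genes. Of the 4 tested in 3'READS, 2 rose in siPaf1 and 1 fell in siCdc73, beside 10.8% and 12.7%, and 0 were called in siSki8, beside 0.795% in either direction. Timp3, an inhibitor of matrix proteases, rose in all 3 knockdowns, from 63.7 and 52.6 CPM to 173 and 82.4, 141 and 73.1, and 94.4 (1.04, 0.80 and 1.07, adjusted p = 0.0018, 0.0112 and 0.0371).

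The libraries held 2796693 to 8160386 gene counts in RNA-seq and 5302728 to 14340927 PASS reads in 3'READS. In RNA-seq the targeted gene was low in its own knockdown, Paf1 at 20.3 and 31.1 CPM against 107 and 160, Cdc73 at 14.2 and 22.0 against 109 and 98.4, and Wdr61 at 5.97 against 49.8 and 129. The siPaf1 batch 2 library of 3'READS held 271 genes over 20-fold above every other library, none of them a collagen gene. All 8 myoblast markers were listed in 3'READS, and their sum ran from 1650 to 1930 CPM in siCtrl, 1800 to 2010 in siPaf1, 843 to 1360 in siCdc73 and 1280 in siSki8. Of these 8, 5 passed 10 CPM in any 3'READS library, while Myod1, Pax7 and Msc reached 0.529, 0.651 and 3.48 CPM at most. The 5 listed in RNA-seq summed to 2070 to 2820, 2080 to 2810, 1260 to 1720 and 3430 CPM. The siCdc73 sums were thus below siCtrl in both assays, while siSki8 was below siCtrl in 3'READS and above it in RNA-seq. Des was the highest of these markers in every 3'READS library, at 525 to 1850 CPM. Single markers went both ways in siCdc73. In RNA-seq Myf5 stood there at 78.3 and 109 CPM against 53.8 and 63.4 in siCtrl, and Cdh15 at 321 and 401 against 790 and 1020. Of 6 fibroblast markers 4 were listed and 2 passed 10 CPM in any library, with sums of 67.2 to 142, 80.9 to 92.4, 19.7 to 33.4 and 68.4 CPM. The fibroblast sum, mostly Pdgfrb, was thus low in the siCdc73 libraries in which Col1a1, Col1a2, Col4a1, Col6a1, Col6a2, Col8a1, Col8a2 and Col16a1 were called lower in 1 or both assays, and the part of these markers in those falls was not tested. Bone and cartilage markers (3 of 7 listed) summed to 36 to 105 CPM in siCtrl, 23.1 to 60.6 in siPaf1 and 21.7 to 77.7 in siCdc73, overlapping where Col2a1, Col9a3, Col10a1 and Col11a2 rose. Differentiating muscle markers ran from 135 to 312, 229 to 562, 91.4 to 338 and 274 CPM, and endothelial markers from 24.3 to 28.7, 4.65 to 18.6, 5.21 to 6.89 and 3.53. Of these 2 lists, 9 of 14 and 1 of 4 markers passed 10 CPM in any library.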

How the data were processed

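RNA-seq and 3'READS, which sequences the 3' ends of poly(A)+ RNA, were analysed in 7 libraries each. Per the study's methods and the labels, reads were mapped to mm9 with Bowtie2 in local mode, and the authors kept uniquely mapped reads. The deposited RNA-seq counts are coding-region reads per RefSeq transcript, listed beside deposited RPKM values that were copied and not tested. The transcript with the highest mean count stood for a gene. The deposited 3'READS counts are pA site supporting (PASS) reads, which carry extra 5' Ts from the poly(A) tail, per site with its class. No per-sample column was left unmatched (0).

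Fits used edgeR 4.0.16 quasi-likelihood tests in R 4.3.3 (TMM, which also scales CPM, filterByExpr, prior count 2, Benjamini-Hochberg adjustment over all genes or sites tested, called under 0.05), all 7 libraries together. Site use was tested through the interaction term between isoform and knockdown, with a mean of 20 reads per gene (single sites, 10 reads in all). The study names no batch term, so calls are given without one first. The alternative had batch as a block, because the labels give each library's batch; deviations of same-batch libraries correlated at 0.432 to 0.748. The log2 values given are pulled towards no change by the prior count. SE is the log2 estimate before that step, over the root of its F statistic. Where reads are few, a log2 value and the SE beside it therefore do not give its p-value. Wilson intervals cover counting error only, and no use of molecular identifiers is given in the sources used here. Scripts were tested on simulated data. The other alternatives were DESeq2 1.42.0, other filters, library size scaling, 3'-most exon reads, a pooled Fisher test and leaving out each library. Members and gene lists were chosen with earlier results of these data known. Named members had a mean of 50 reads per library or a call, and named intronic sites 30 reads or a call.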

Additional observations from a re-analysis of the deposited data

Results flagged for a closer look

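The effect of siCdc73 differed from that of siPaf1 in 12 collagen results when the difference itself was tested with batch as a block, and this is what brought them here. In RNA-seq the log2 difference, siCdc73 minus siPaf1, was -3.05 for Col2a1, 0.95 for Col5a3, -1.97 for Col8a1, -2.76 for Col8a2 and -2.07 for Col24a1. In 3'READS it was -1.87 for Col1a1, 1.17 for Col4a5, 0.92 for Col5a3, -1.90 for Col8a1, -2.30 for Col8a2, -1.84 for Col12a1 and -1.61 for Col14a1. Without the block edgeR called none of the 12 (adjusted p from 0.222 to 0.537), and DESeq2 called Col8a1 in RNA-seq.

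Col8a1 and Col8a2, the chains of type VIII collagen, lay on opposite sides of siCtrl in siPaf1 and siCdc73, except Col8a2 in batch 1 of 3'READS. Col8a1 was above siCtrl in siPaf1 by 0.07 and 1.07 log2 units in batches 1 and 2 of RNA-seq and 0.33 and 1.47 in 3'READS, and below it in siCdc73 by -1.66 and -1.12, and -1.10 and -0.83. Col8a2 was above siCtrl in siPaf1 by 0.58 and 1.55 in RNA-seq, but -0.15 and 1.80 in 3'READS, and below it in siCdc73 in both assays and batches. Col8a2 stood at 26.6 and 2.35 CPM in batches 1 and 2 of siCtrl RNA-seq, so that its values differed widely between batches. Groups held 1 or 2 libraries, so no library could be screened as an outlier within its group.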

How the results depend on the processing

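Precision was limited by 2 libraries per group and 1 for siSki8, and by members with few siCtrl reads. Level calls rest on the replicate block: without it edgeR called 0 members in either assay, and with it 6 in siPaf1, 9 in siCdc73, 2 in siSki8 and 5 between the knockdowns in RNA-seq, and 9, 14, 0 and 7 in 3'READS. The block also gave 4 CDS-APA calls in siPaf1 against 1, and 1 call within the 3' untranslated region in siSki8 against 0. It narrowed the biological coefficient of variation from 0.397 to 0.179 in RNA-seq and from 0.515 to 0.247 in 3'READS. The cause of the other changes given here was not tested.

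Without the block, DESeq2 called 3 members in siPaf1, 3 in siCdc73 and 1 between them in RNA-seq, and 4 and 6 in 3'READS. The shares of all genes beside these were 5.98%, 8.43% and 2.5%, and 3.94% and 5.65%. Omitting the count filter gave 1 and 1 in RNA-seq and 2 and 2 in 3'READS. For CDS-APA in siCdc73, a mean of 50 reads and no site filter each gave 1. Adding internal exon sites to the single sites, an alternative chosen after seeing the data, gave 2 in siCdc73. No share of all genes is given for these filter and added-site counts, which show only how the calls of members depend on the fit. A Fisher test on pooled reads, which has no replicate error (unadjusted p under 0.01 and over 1.4-fold for levels, adjusted p under 0.05 for site use), gave 9, 10 and 6 in siPaf1, siCdc73 and siSki8 for RNA-seq, 23, 24 and 10 for 3'READS, 5, 6 and 1 for CDS-APA, 10, 9 and 1 for single sites and 8, 3 and 4 within the 3' untranslated region. The same rule called 40.8%, 46.4% and 43.2% of all genes in RNA-seq, 46.1%, 46.2% and 32.0% in 3'READS, 58.6%, 55.7% and 17.5% in CDS-APA, 39.1%, 39.1% and 7.09% of single sites and 49.7%, 43.6% and 35.7% within the 3' untranslated region.

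With the block, and in the order siPaf1, siCdc73, siSki8 and the direct difference, DESeq2 called 6, 7, 2 and 5 in RNA-seq and 7, 11, 1 and 4 in 3'READS, beside 26.6%, 34.0%, 3.91% and 22.4%, and 14.6%, 19.7%, 1.58% and 11.7%, of all genes. Scaling by library size alone gave 6, 11, 3 and 7, and 12, 14, 0 and 7. That scaling moved the median of all genes to -0.35 (siSki8) and -0.18 (siCdc73) in RNA-seq and to 0.16 (siPaf1) in 3'READS without the block. No count filter gave 6, 9, 2 and 5, and 10, 14, 1 and 7. The first listed transcript gave 6, 9, 2 and 5 in RNA-seq, and reads of the 3'-most exon alone 8, 14, 0 and 7 in 3'READS. In CDS-APA a mean of 50 reads gave 4 and 4, and no site filter 3 in siPaf1, with 1 and 1 within the 3' untranslated region. For single sites, 30 reads gave 2 and 2 in siPaf1 and siCdc73, as did adding internal exon sites. No share of all genes is given for the scaling, filter, transcript, 3'-most exon and added-site alternatives. Their counts therefore show only how the calls of members depend on the fit.

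Leaving out 1 library at a time with the block gave 4 to 8 RNA-seq calls in siPaf1, 4 to 10 in siCdc73, 1 to 4 in siSki8 and 3 to 8 between the knockdowns. In 3'READS it gave 3 to 15, 7 to 17, 0 to 3 and 4 to 9 (siCdc73 had 16 and 17 without siPaf1 batch 1 and batch 2), in CDS-APA 2 to 4 and 2 to 3, at single sites 1 to 2 and 1 to 2, and 0 to 1 within the 3' untranslated region in siSki8. Without the block it gave 0 to 1 and 0 to 3 for CDS-APA and 1 to 1 and 0 to 1 for single sites in siPaf1 and siCdc73, and 0 for every level. No share of all genes is given for the fits without 1 library, so these ranges describe the calls of members only. Of the 62 single-member results called with the block, 25 were called in every such fit and 62 kept their direction. The sign turned for Col8a2 in siCdc73 without siCtrl batch 1 and without the block (0.55 in RNA-seq and 0.32 in 3'READS, where the lowest values with 1 library left out were -3.87 and -3.1), and for Col12a1 in siCdc73 when the 3'-most exon alone was counted (-0.45, or -0.41 with the block), where the reads of the intronic site are left out.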

Other observations

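Few reads lay upstream and antisense of collagen genes. The 2 antisense sites of Col19a1 had 0 and 0, 1 and 1, 0 and 0, and 0 reads, and 0 and 0, 3 and 0, 0 and 0, and 0 reads, in siCtrl, siPaf1, siCdc73 and siSki8. The site of Col9a2 had 2 and 3 reads in siCtrl, 1 and 10 in siPaf1, 0 and 5 in siCdc73 and 2 in siSki8.

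Across the 29 members tested in 3'READS, the log2 change did not follow gene length (Spearman rho 0.10 in siPaf1 and 0.09 in siCdc73). It was higher where the siCtrl level was lower (rho -0.64 and -0.60). The siCtrl libraries enter both sides of that second relation, and a member with few siCtrl reads entered the test only where other libraries held more reads, so it is given as a description of these 29 genes and no more.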
